A study of Daucus carota with 10 samples.

Results

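The genes described here were those of the carrot (Daucus carota) taproot whose transcripts were high in the phloem and low in the xylem of both dissected cultivars. They were chosen on measured values. With x standing for FPKM + 1 (fragments per kilobase of transcript scaled to the mapped fragments of the library, plus 1), the lowest x over the 4 phloem libraries had to be at least 2 times the highest x over the 4 xylem libraries. This fold was met by 155 annotated genes, and 12 of them were left out: 1 that was also at least 2 times higher in every library of xylem E than of xylem G, 5 from the study's list of structural, MYB, bHLH and glutathione S-transferase genes, and 6 that it placed under monoterpenoid, limonene, cutin or phenylpropanoid pathways in its comparison of E with F. The remaining 143 genes were 0.396% of the 36089 annotated genes in the files.

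RNA was sequenced from taproots of 120 days, grown in a greenhouse, in 5 groups of 2 libraries, and the groups carry the study's letters throughout. F is the phloem and E the xylem of one purple cultivar, H is the phloem and G the xylem of the other, and CT is the whole root slice of the orange cultivar H13.360IND. The sample labels call E and F 'Purple Haze', with an orange xylem, and G and H 'Purple 68', with a purple xylem, while the study's design text and methods give the cultivars the other way round. Taproots of a cultivar were mixed before the tissue was sampled, so each library is a pool, and spread between the 2 libraries of a group is the only error that can be given. The transcript of LOC108200622, the gene of the pigment enzyme chalcone synthase 1, bears on the conflict: it stood at 7591 and 8899 FPKM in F, 6252 and 8503 FPKM in H, 4958 and 7154 FPKM in E, 78.9 and 74.8 FPKM in G and 8.40 and 8.72 FPKM in CT. It was high in the xylem that the labels call orange (E) and low in the xylem that they call purple (G), so the cultivars are named by letter only.

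In a carrot root the phloem lies outside the cambium and the xylem inside it. Phloem holds the sieve tubes and companion cells that bring sucrose into the root, together with storage parenchyma and the canals that secrete essential oils, and a dissected outer ring can carry the corky periderm of the root surface as well. Xylem holds the water vessels, with storage parenchyma of its own. In bulk tissue, fewer cells of a type and less RNA per cell cannot be told apart.

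The FPKM values were scaled to between 13909836 and 17118782 fragments per library, as recovered from the steps of those values. Between 23229 and 25710 loci were detected per library. At this depth 3 fragments on a transcript of 1 kb correspond to 0.175 to 0.216 FPKM, so differences between values under that level were not resolved. The tissue labels could be checked against few genes, because the files carry no product names. The one phloem marker that could be matched, LOC108225351, an APL-like MYB gene, stood at 0.333 and 0.268 FPKM in F, 0.208 and 0.283 FPKM in H, 0 and 0.0396 FPKM in E, 4.87 and 5.83 FPKM in G and 1.27 and 1.70 FPKM in CT. It was low in both phloems, and lower in H than in its xylem G. F was above its xylem E, but at values near the level of 3 fragments. Genes of suberin and cutin formation, which mark the periderm and other surface layers, were matched through their Arabidopsis counterparts. LOC108221074, counterpart of the Arabidopsis suberin feruloyl transferase gene AT5G41040, stood at 3.25 and 2.30 FPKM in F, 1.21 and 2.14 FPKM in H, 0.0284 and 0 FPKM in E, 0.0620 and 0.0591 FPKM in G and 0.135 and 0.329 FPKM in CT. LOC108219920, counterpart of the suberin hydroxylase gene AT5G58860, had 2.14 and 2.39 FPKM in F, 1.81 and 4.92 FPKM in H, 0.121 and 0.125 FPKM in E and 0.725 and 2.35 FPKM in G, and overlapped between H and G. LOC108215276, counterpart of the cutin hydroxylase gene AT4G00360, had 4.09 and 2.03 FPKM in F, 0.832 and 3.91 FPKM in H, 0 and 0.117 FPKM in E and 0.0615 and 0 FPKM in G. LOC108221074 itself met the fold of the rule and was left out for its pathway. All of these genes were matched through lists of differing genes that the study drew up from these libraries. They are few and selected, so they do not settle the tissue labels. As a phloem marker, the APL-like gene went against the labels in H and G. The part of periderm in the values below was not tested.

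The 143 genes covered a wide range of levels. The mean over the 4 phloem libraries ran between 1.59 and 875 FPKM, with a median of 13.4 FPKM, and the mean over the 4 xylem libraries between 0 and 51.3 FPKM, with a median of 0.641 FPKM. In phloem, 82 genes averaged at least 10 FPKM and 61 averaged less. In xylem, 68 genes were under 1 FPKM in every library, 50 were listed at 0 in at least 1 library and 4 were listed at 0 in all of them. As a share of FPKM times transcript length summed over all loci, the 143 genes took 0.984% and 0.843% in F, 0.680% and 0.945% in H, 0.0450% and 0.0534% in E, 0.0734% and 0.0474% in G, and 0.244% and 0.300% in CT. All these levels follow from the rule and are given as a description, without a test.

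Every member was higher in phloem in both pairs, as the rule demands. The median log2 ratio of x was 2.82 for F over E (range 1.19 to 7.49) and 2.46 for H over G (range 1.15 to 6.87), beside 0.03 and -0.20 over all annotated genes with a group mean of at least 1 FPKM. The ratio that the rule used, lowest phloem x over highest xylem x, had a median of 3.02. It was at least 10 in 12 genes, at least 4 in 38 genes and under 3 in 70 genes. The highest xylem value came from library G1 in 70 genes, from E2 in 37, from E1 in 22 and from G2 in 14, and the lowest phloem value came from H1 in 62 genes. Membership leaned on G1: without that library 251 genes met the rule, and without each of the other 7 libraries between 153 and 211 did. The genes at the threshold were close to each other in ratio but not in level. In phloem the 3 genes just inside reached at most 11.8 FPKM (LOC108196440 in H1). Just inside were LOC108216659 (ratio 2.01), LOC108215193 (2.02) and LOC108196440 (2.02), and just outside were LOC108212070 (1.98), LOC108227783 (1.998) and LOC108215725 (1.99999). LOC108215725 shows how 1 library decides: it had 414 and 330.1 FPKM in F, 407 and 354 FPKM in H, 3.07 and 19.6 FPKM in E and 165 and 60.4 FPKM in G.

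The widest gap between phloem and xylem belonged to LOC108215975 (bases 28729617 to 28731539, plus strand, in the coordinates of the files), which stood at 634 and 406 FPKM in F, 137 and 358 FPKM in H, 1.19 and 2.65 FPKM in E, 1.20 and 0.654 FPKM in G and 92.3 and 215 FPKM in CT. Every phloem library was far above every xylem library, by a ratio of 37.9 between the nearest values, and the CT libraries lay between them or, for 1 of them, within the range of H. Its direct neighbour LOC108215913, 4157 bases upstream on the same strand, was also among the 10 genes with the widest gap and had the same shape, at 199 and 212 FPKM in F, 29.8 and 106 FPKM in H, 0.476 and 1.12 FPKM in E, 0.555 and 0.231 FPKM in G and 25.6 and 64.6 FPKM in CT. In both genes H1 was the lowest phloem library and the F libraries were above the H libraries. The files give neither gene a product name.

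LOC108219007, next by the ratio, had 116 and 80.9 FPKM in F, 40.5 and 68.6 FPKM in H, 0.107 and 0.557 FPKM in E, 0 and 0.669 FPKM in G and 16.7 and 25.2 FPKM in CT. LOC108201907 had 31.3 and 30.7 FPKM in F, 39.3 and 20.4 FPKM in H, 0.139 and 0.144 FPKM in E, 0.303 and 0.0722 FPKM in G and 0.248 and 1.27 FPKM in CT. The CT libraries thus approached phloem in the first of these genes and xylem in the second. The galactinol synthase gene LOC108210651, also among the 10, is described with the sugar genes below. LOC108206627 had 51.1 and 94.4 FPKM in F and 61.2 and 54.0 FPKM in H, against 1.51 and 0.732 FPKM in E, 2.67 and 0.698 FPKM in G and 0.957 and 4.15 FPKM in CT, and LOC108223685 was alike, at 103 and 169 FPKM in F, 162 and 97.0 FPKM in H, 4.78 and 7.85 FPKM in E, 3.41 and 1.08 FPKM in G and 7.42 and 19.2 FPKM in CT. Both were lower in CT than in any phloem library, and library CT2 lay above every xylem library in each. LOC108200699, with 24.9 and 42.2 FPKM in F and 30.7 and 33.8 FPKM in H, against 0.996 and 0.155 FPKM in E and 0.761 and 0.984 FPKM in G, and LOC108203972, with 24.9 and 19.9 FPKM in F and 15.3 and 19.6 FPKM in H, against 0.286 and 0.297 FPKM in E and 0.223 and 0.128 FPKM in G, stayed under 1 FPKM in every xylem library.

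**Figure D1:**
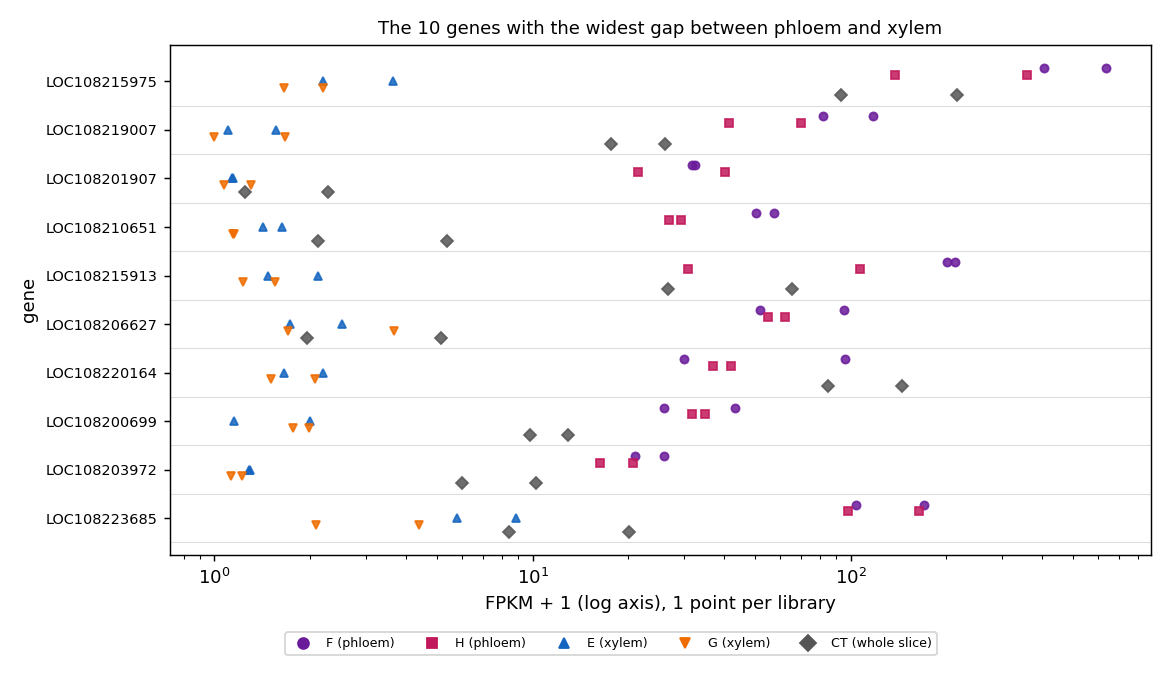
Levels of the 10 genes with the widest gap between phloem and xylem, 1 row per gene, with FPKM + 1 on a log axis and 1 point per library, coloured by group. The phloem points of each gene (F and H) lie to the right of all its xylem points (E and G), by 37.9 times for LOC108215975 between the nearest values; CT points fall anywhere between xylem level and, for LOC108220164, above the highest phloem point.

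The most abundant transcript of the 143 in phloem was LOC108202861 (bases 26073904 to 26076550, plus strand), at 856 and 943 FPKM in F, 747 and 953 FPKM in H, 21.1 and 17.4 FPKM in E, 95.0 and 71.6 FPKM in G and 360.3 and 248 FPKM in CT. The phloem libraries were close together, G was above E, and CT lay between xylem and phloem. LOC108220321 was almost as abundant but far less even, at 1338 and 340.3 FPKM in F, 393 and 1307 FPKM in H, 17.9 and 20.5 FPKM in E, 86.1 and 70.6 FPKM in G and 505 and 826 FPKM in CT. Its replicates differed more than 3-fold in both F and H, and CT overlapped the phloem libraries.

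LOC108205012 had 584 and 286 FPKM in F and 417 and 731 FPKM in H, against 33.3 and 21.1 FPKM in E, 57.6 and 34.5 FPKM in G and 51.4 and 125 FPKM in CT. LOC108211411 had 621 and 314 FPKM in F and 423 and 554 FPKM in H, against 30.5 and 81.0 FPKM in E, 13.4 and 27.4 FPKM in G and 78.4 and 83.2 FPKM in CT. In LOC108211411 a single xylem library, E2, was close to the CT level. LOC108220887 had 180.4 and 392 FPKM in F and 215 and 374 FPKM in H, against 28.1 and 24.8 FPKM in E, 28.6 and 3.82 FPKM in G and 7.93 and 22.2 FPKM in CT, so that CT was at xylem level. LOC108193921 had 145 and 206 FPKM in F and 259.8 and 271 FPKM in H, against 9.52 and 6.48 FPKM in E, 12.6 and 4.59 FPKM in G and 29.2 and 30.2 FPKM in CT, with both H libraries above both F libraries. LOC108194188 had 222 and 75.8 FPKM in F and 264 and 352 FPKM in H, against 11.3 and 10.4 FPKM in E and 6.02 and 13.0 FPKM in G, with F2 lowest of the phloem libraries. LOC108219615 kept a clear level in xylem, at 172 and 302 FPKM in F, 198 and 178 FPKM in H, 22.9 and 47.2 FPKM in E and 35.1 and 13.9 FPKM in G. Over the 143 genes, replicates differed by more than 2-fold in x for 27 genes in F, 28 in H, 14 in E, 30 in G and 22 in CT.

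Only 22 of the 143 genes had a pathway and an Arabidopsis counterpart in the study's lists, and those lists were drawn up from these same libraries, so they are used to name the genes and not as evidence of their direction. The roles below are those of the Arabidopsis counterparts. The sugar genes were led by a pair for galactinol synthase (counterpart AT2G47180), the enzyme that makes the galactosyl donor of raffinose and stachyose. LOC108210651 (bases 33948316 to 33950077, plus strand) had 49.4 and 56.5 FPKM in F, 25.8 and 28.4 FPKM in H, 0.421 and 0.632 FPKM in E, 0.153 and 0.146 FPKM in G and 1.11 and 4.39 FPKM in CT. LOC108215254, the next gene on the same strand, 9496 bases further on, had 21.9 and 57.8 FPKM in F, 51.2 and 77.0 FPKM in H, 6.17 and 3.40 FPKM in E, 4.03 and 1.81 FPKM in G and 0.313 and 2.24 FPKM in CT. The first copy was below 1 FPKM in every xylem library and higher in F than in H. The second kept a low xylem level and overlapped between F and H. Both copies were lower in CT than in any phloem library. Whether reads are shared between these copies was not examined.

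LOC108224374, counterpart of the rhamnose synthase gene AT1G78570 (RHM1), which makes the nucleotide sugar of pectin and flavonol rhamnosides, had 76.1 and 80.8 FPKM in F, 10.1 and 25.6 FPKM in H, 0.517 and 0.215 FPKM in E, 1.18 and 0.215 FPKM in G and 21.3 and 23.1 FPKM in CT. Both F libraries were above both H libraries, and CT lay within the range of H. LOC108211425, counterpart of the trehalose-6-phosphate phosphatase gene AT4G39770, which clears a sugar signal, had 14.6 and 16.7 FPKM in F and 14.6 and 6.74 FPKM in H, against 0.293 and 0.478 FPKM in E, 0.640 and 0.479 FPKM in G and 5.92 and 5.95 FPKM in CT.

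A group of 6 lipid genes covered chain release, activation, desaturation, elongation and use of fatty acids. LOC108221107 (AT1G08510, FATB), the thioesterase that frees saturated fatty acids from the plastid, had 4.22 and 4.74 FPKM in F and 3.29 and 2.15 FPKM in H, against 0 and 0.0406 FPKM in E, 0.0853 and 0.0407 FPKM in G and 0.325 and 0.566 FPKM in CT. LOC108209981 (AT4G11030), a long-chain acyl-CoA synthetase, had 6.64 and 4.66 FPKM in F and 2.99 and 2.49 FPKM in H, against 0.0273 and 0.0852 FPKM in E, 0 and 0.0284 FPKM in G and 0.943 and 1.19 FPKM in CT. LOC108220169 (AT3G12120, FAD2), which desaturates oleate to linoleate, had 7.78 and 9.57 FPKM in F and 10.3 and 12.8 FPKM in H, against 0.401 and 0.333 FPKM in E, 2.15 and 0.0417 FPKM in G and 1.24 and 4.65 FPKM in CT. FATB and the acyl-CoA synthetase were near or at 0 in every xylem library and had both F libraries above both H libraries, while FAD2 kept some signal in library G1 and had both H libraries above both F libraries; in the test of F against H given below, none of the 3 was called.

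The elongase gene LOC108203083 (AT2G26640, KCS11), which lengthens fatty acids, had 1.99 and 1.22 FPKM in F and 1.78 and 2.81 FPKM in H, against 0.0320 and 0 FPKM in E and 0.0349 and 0 FPKM in G. LOC108225325 (AT1G06520, GPAT1), a glycerol-3-phosphate acyltransferase, had 6.22 and 1.74 FPKM in F and 3.05 and 5.36 FPKM in H, and was listed at 0 in every xylem library but G1. LOC108219710 (AT4G15440), hydroperoxide lyase, which cleaves fatty acid hydroperoxides to volatile aldehydes, had 8.82 and 6.13 FPKM in F and 5.59 and 5.74 FPKM in H, against 0.501 and 0.417 FPKM in E, 0.985 and 0.556 FPKM in G and 3.14 and 5.94 FPKM in CT. KCS11 and GPAT1 were rare transcripts even in phloem, and their F and H libraries overlapped.

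The next 3 annotated genes belong to calcium and oxidant signalling in defence. LOC108202881 (AT5G47910, RBOHD), the NADPH oxidase that makes superoxide at the cell surface, had 16.5 and 17.3 FPKM in F, 11.4 and 5.55 FPKM in H, 0.647 and 0.163 FPKM in E, 0.385 and 0.367 FPKM in G and 10.03 and 15.1 FPKM in CT. LOC108192744 (AT1G73630), an EF-hand calcium-binding protein, had 24.6 and 29.9 FPKM in F and 16.3 and 22.0 FPKM in H, against 1.90 and 3.31 FPKM in E and 2.54 and 2.42 FPKM in G. Calmodulin-like LOC108210400 (AT3G50770) was the only one of the 22 annotated genes with both CT libraries above every phloem library and is given with CT below. LOC108196653 (AT3G54420, EP3), an endochitinase, had 29.97 and 16.0 FPKM in F and 22.4 and 31.0 FPKM in H, against 1.24 and 0.117 FPKM in E, 4.49 and 0.528 FPKM in G and 1.54 and 1.74 FPKM in CT.

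Of the aromatic genes, LOC108224600 (AT5G10870), chorismate mutase, which commits chorismate to phenylalanine and tyrosine, had 48.1 and 61.4 FPKM in F, 73.3 and 36.9 FPKM in H, 3.02 and 4.56 FPKM in E, 16.8 and 17.2 FPKM in G and 69.0 and 45.4 FPKM in CT. Its xylem level in G was above that in E, and CT was within the phloem range. LOC108215256 (AT4G37990), a cinnamyl alcohol dehydrogenase-type gene, had 49.8 and 12.9 FPKM in F and 36.1 and 23.9 FPKM in H, against 4.10 and 4.90 FPKM in E and 4.90 and 3.54 FPKM in G, and LOC108194028 (AT5G05340), a class III peroxidase, had 1.598 and 1.38 FPKM in F and 3.30 and 5.76 FPKM in H, against 0 and 0.0448 FPKM in E and 0 and 0 FPKM in G. The peroxidase was higher in both H libraries than in either F library. Further genes placed under phenylpropanoid biosynthesis met the fold but were left out by the rule, so these are not all the phloem-high aromatic genes. LOC108220936 (AT1G78440), a gibberellin 2-oxidase, which inactivates gibberellins, had 8.91 and 15.5 FPKM in F and 4.06 and 4.41 FPKM in H, against 1.39 and 1.36 FPKM in E, 0.357 and 0.170 FPKM in G and 0.243 and 0.474 FPKM in CT, with F above H. The other annotated genes, an alcohol dehydrogenase-like gene (LOC108214322), a tropinone reductase-like gene (LOC108197361), an acylphosphatase family gene (LOC108218526) and LOC108222708, had smallest phloem values between 2.24 and 51.0 FPKM.

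**Figure D2:**
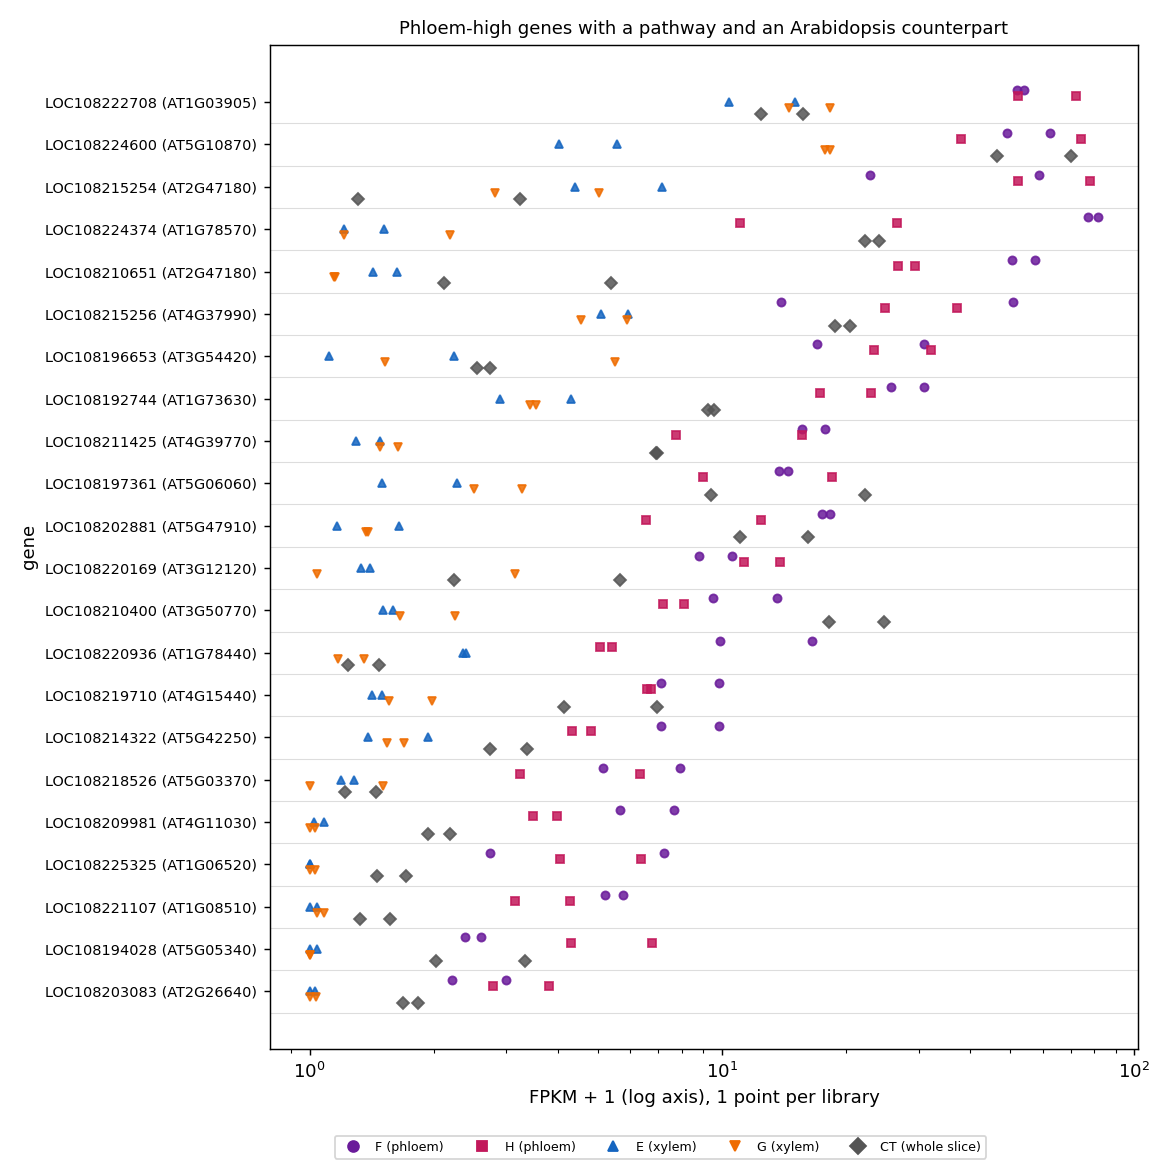
The 22 genes with a pathway and an Arabidopsis counterpart, sorted by mean phloem level, with FPKM + 1 on a log axis and 1 point per library, coloured by group. In every row the F and H points lie right of the E and G points by at least 2 times, and the CT points of calmodulin-like LOC108210400 (23.8 and 17.2 FPKM) lie right of its phloem points.

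Some members were neighbours in the genome. With the gene order of the files, 8 pairs had no other gene between them. LOC108218073, LOC108217899 and LOC108216827 formed a run on the minus strand, with gaps of 1223 and 808 bases. LOC108218073 had 3.40 and 4.08 FPKM in F and 2.65 and 3.03 FPKM in H and was listed at 0 in every xylem library, LOC108217899 had 10.2 and 5.14 FPKM in F and 4.39 and 7.56 FPKM in H, and LOC108216827 had 27.9 and 18.0 FPKM in F and 12.9 and 14.4 FPKM in H. Their phloem levels differed from each other, with LOC108216827 the highest in each phloem library. The abundant LOC108220321 lay 8995 bases from LOC108220164, and LOC108211411 lay 2860 bases from LOC108211469. Near-identical copies would share reads, and which neighbours are copies was not examined. The members were also short, with a median listed length of 1197 bases, beside 1648 bases over the annotated genes with a group mean of at least 1 FPKM.

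The orange root CT was not used by the rule. It differs from the other groups in cultivar and in being a whole slice, and these cannot be told apart. In 97 of the 143 genes (67.8%) both CT libraries were above every xylem library, which was so in 29.7% of the annotated genes with a group mean of at least 1 FPKM. In 107 genes (74.8%) both CT libraries were below every phloem library, against 11.9% of all such genes. Both held in 62 genes (43.4%), against 0.694%. The rule had fixed low xylem values and high phloem values for these genes, so the shares are a description. Placed on the log2 scale from the xylem mean towards the phloem mean, CT had covered a median of 44.7% of the way, with quartiles at 22.0% and 65.5%. The median log2 ratio of x was 1.51 for phloem over CT, beside -0.40 for all genes, and -1.13 for xylem over CT, beside -0.34.

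A few genes stood apart in CT. LOC108210400, the calmodulin-like gene, had 8.51 and 12.6 FPKM in F, 7.07 and 6.18 FPKM in H, 0.508 and 0.593 FPKM in E, 1.25 and 0.660 FPKM in G and 23.8 and 17.2 FPKM in CT. LOC108209759 had 4.48 and 4.38 FPKM in F, 18.1 and 10.02 FPKM in H, 0.154 and 0.107 FPKM in E, 1.07 and 1.28 FPKM in G and 18.6 and 18.1 FPKM in CT. Both CT libraries exceeded every phloem library in these 2 genes alone (1.40% of members, 38.3% of all genes). LOC108220164 had the highest CT level relative to phloem, at 94.7 and 28.9 FPKM in F, 35.9 and 41.0 FPKM in H, 0.653 and 1.19 FPKM in E, 1.07 and 0.509 FPKM in G and 83.8 and 144 FPKM in CT, with CT1 inside the phloem range, and LOC108227602 had 13.0 and 24.1 FPKM in F, 7.14 and 25.5 FPKM in H and 26.4 and 21.1 FPKM in CT. At the other end, LOC108220706 had 187 and 37.6 FPKM in F, 31.7 and 98.3 FPKM in H, 2.69 and 1.11 FPKM in E, 1.62 and 0.963 FPKM in G and 1.71 and 0.671 FPKM in CT, so that CT was at the level of xylem. LOC108193170 had 54.7 and 20.5 FPKM in F, 87.4 and 105 FPKM in H, 1.61 and 4.19 FPKM in E, 1.47 and 1.502 FPKM in G and 0.585 and 1.08 FPKM in CT, and was the 1 member (0.699%) with both CT libraries below every xylem library, against 8.6% of all genes. The galactinol synthase copy LOC108215254 was also among the 4 lowest in CT relative to phloem.

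**Figure D3:**
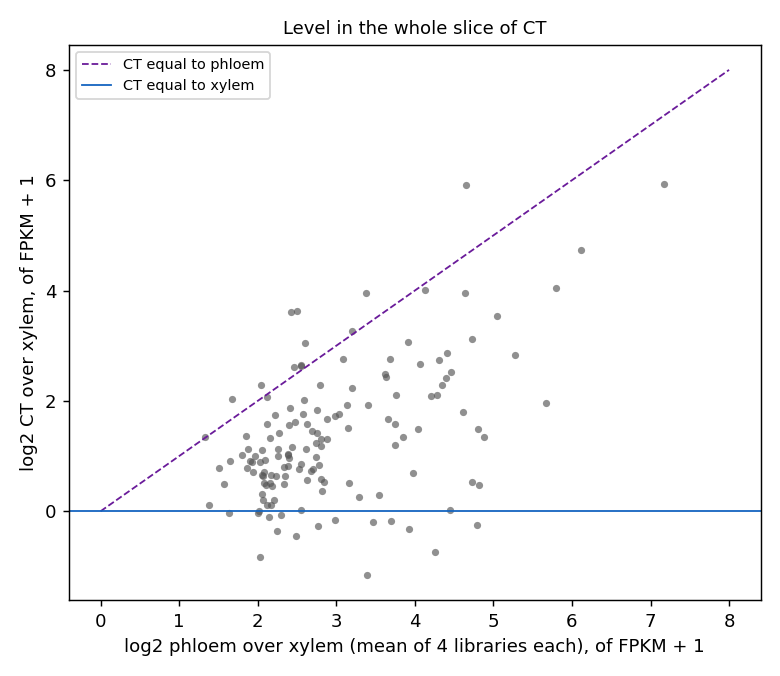
Position of the orange root: log2 ratio of FPKM + 1 for CT over the xylem mean (vertical axis) against that for phloem over xylem (horizontal axis), 1 point per gene. Points on the solid line have CT at xylem level and points on the dashed line have CT at phloem level; 68 and 48 genes lie in the lower and upper parts of the space between the lines, 12 lie above the dashed line and 15 below the solid line.

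The phloems F and H were compared over all genes with limma, with 18671 genes tested and calls at an adjusted p below 0.05 and a log2 change of at least 1 in size. The rule did not use this difference, but it chose the members on the values of these same libraries. The members' calls and shares are therefore a description. Of the 143 genes, 1 was called higher in H and 0 were called higher in F, beside 0.878% and 0.53% of all genes tested. An unadjusted p below 0.05 with a log2 change of at least 1 in size was found in 25 members (17.5%, against 13.7% of all genes). Without that minimum change, 29 members (20.3%, against 16.0%) had an unadjusted p below 0.05. Voom on recovered fragments called 0, with 23 members (16.1%, against 14.4%) at an unadjusted p below 0.05 and the minimum change. The called gene was LOC108226386 (bases 28689182 to 28690841, plus strand), which had 18.4 and 12.1 FPKM in F, 82.9 and 67.5 FPKM in H, 0 and 0 FPKM in E, 2.30 and 0.957 FPKM in G and 0.547 and 0.698 FPKM in CT. The H libraries were all above the F libraries, and the gene was listed at 0 in both E libraries. Its log2 ratio F over H was -2.25 (SE 0.34, limma adjusted p = 0.0352). Without each of the 4 libraries in turn the log2 ratio stayed between -2.54 and -1.97. Those fits take the spread of the lone library from the other group and called 0 of all genes tested, so the adjusted p there (between 0.165 and 0.248) says nothing about the stability of the call.

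Over the 143 genes the median log2 ratio F over H was 0.29, beside 0.11 over all genes tested, and 94 genes had a positive ratio. The order of these medians depended on the H libraries: they were 0.15 for members and 0.36 for all genes without H replicate 1, and 0.41 and -0.16 without H replicate 2. Every F library was above every H library in 53 genes (37.1%, against 25.7% of all genes), and every H library was above every F library in 20 genes (14.0%, against 19.2%). The rule chose the members on these F and H values, so these medians and counts are a description. LOC108198830 and rhamnose synthase LOC108224374 had the largest differences towards F, at log2 2.82 (adjusted p = 0.0511) and 2.21 (adjusted p = 0.0726), and neither passed the test. LOC108198830 had 33.5 and 25.8 FPKM in F, 2.07 and 5.05 FPKM in H, 0.165 and 0.0855 FPKM in E, 0.269 and 0.171 FPKM in G and 0.196 and 0.636 FPKM in CT, and both F libraries were above both H libraries. With 2 libraries a group, a two-sided exact permutation test of a single gene cannot give a p below 0.333.

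**Figure D4:**
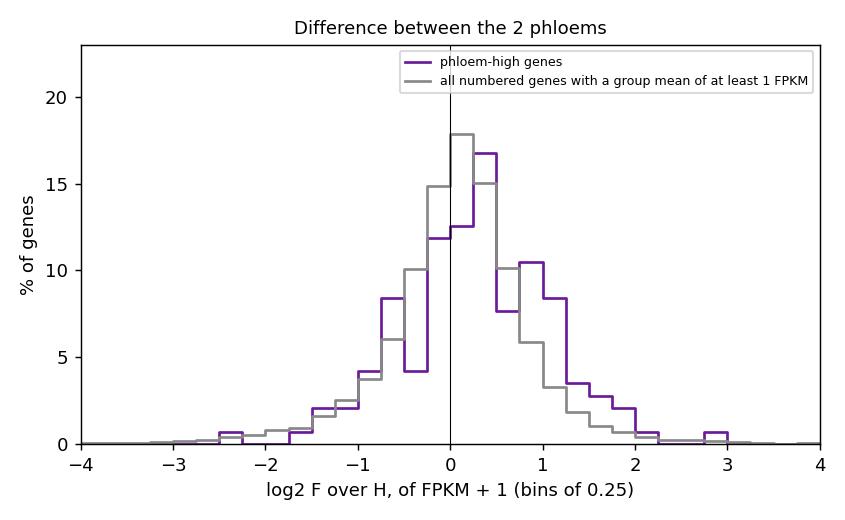
Share of genes (%) by log2 ratio F over H of FPKM + 1, in bins of 0.25, for the 143 genes and for all annotated genes with a group mean of at least 1 FPKM. The members' distribution is centred on 0.29 and overlaps that of all genes over most of its width; the member at the far left is LOC108226386 at -2.25.

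Whether the excess of phloem over xylem had the same size in both pairs was asked with an interaction term over the 8 libraries, with 20081 genes tested. The rule did not ask for an equal excess, but it chose the members on the values of these same libraries. It also left out genes with every E library at least 2 times every G library. The members' calls, shares and medians are therefore a description. The excess was called larger in F over E than in H over G for 2 members, beside 1.27% of all genes tested, and called larger in H over G for 0 members, beside 0.174%; 18 members (12.6%, against 11.8% of all genes) had an unadjusted p below 0.05 in either direction, and voom called 0, with 10 members (6.99%, against 10.8%) at an unadjusted p below 0.05. The members' shares were thus near or below those of all genes. LOC108216523 (bases 25748964 to 25750230, plus strand) had 252 and 283 FPKM in F, 122 and 225 FPKM in H, 2.55 and 2.42 FPKM in E, 28.8 and 31.6 FPKM in G and 52.6 and 47.9 FPKM in CT. Both F libraries were above both H libraries, and both G libraries were far above both E libraries. Its log2 ratio was 6.26 for F over E and 2.42 for H over G, a difference of 3.84 (SE 0.43, limma adjusted p = 0.0165). LOC108202861, the most abundant member, had log2 ratios of 5.48 for F over E and 3.34 for H over G, a difference of 2.14 (SE 0.34, limma adjusted p = 0.0374). There the phloem libraries overlapped and both G libraries were above both E libraries. With each of the 8 libraries left out in turn, the difference stayed between 1.94 and 2.34 for LOC108202861, which was called in 0 of those fits (adjusted p between 0.0700 and 0.125), and between 3.41 and 4.28 for LOC108216523, which was called in 3 (adjusted p between 0.0331 and 0.102). The same fits called between 0 and 64 of all genes, and 0 without either G library, beside 291 with all libraries.

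Across the 143 genes the difference between the pairs was positive in 96, with a median of 0.43, beside 0.24 over all genes tested. After quantile normalization the medians were 0.10 for members and -0.06 for all genes, and 82 members were positive. The order turned round without G replicate 1 (0.16 and 0.35), without H replicate 1 (0.27 and 0.50), without E replicate 1 (0.36 and 0.48) and by voom (0.30 and 0.37), and with a pseudocount of 0.1 both medians were 0.34.

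**Figure D5:**
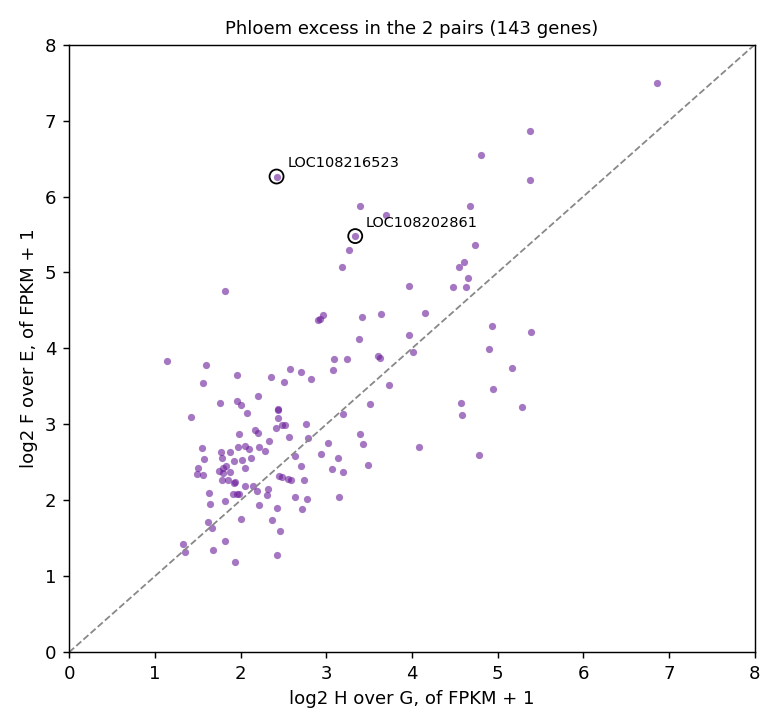
Log2 ratio of FPKM + 1 for F over E (vertical axis) against that for H over G (horizontal axis), 1 point per gene for the 143 genes, with the dashed line marking equal ratios. LOC108216523 (6.26 against 2.42) and LOC108202861 (5.48 against 3.34) are circled, and 96 genes lie above the line.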

How the data were processed

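The authors mapped the reads with TopHat 2.0.12 and Bowtie2 2.2.3, counted them with HTSeq 0.6.1 and tested with DESeq 1.18.0, per the labels and methods; the genome build is not given in the sources used here. The authors deposited FPKM values, 1 file per library, for 36908 loci, of which 819 unannotated loci were not members. FPKM depends on the total of a library, so 1 abundant transcript lowers all others. Whole fragments were recovered for 75.2% of 30180 detected loci (tolerance 0.02).

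Values were analysed as log2(FPKM + 1), a scale that understates changes of low genes, in Python 3.11.15 and with limma 3.58.1 in R 4.3.3 (trend in the prior variance, Benjamini-Hochberg adjustment over all genes whose mean reached 1 FPKM in any group of the fit). All 143 genes passed that filter, for which their phloem values under the rule suffice. The fit of F against H was tested on simulated data, and other pseudocounts, filters, scalings, fits and libraries were tried. The kit named in the labels is not stated to mark strand, so overlapping genes on opposite strands cannot be told apart. Groups came from the letters in the labels. Replicate numbers were not used to pair the samples in the main fits, which took the libraries as independent. Correlations of the replicate differences between groups ran between -0.58 (H with G) and 0.62 (E with H). Some libraries of different groups thus shared differences, and their source was not tested. The study calls the 2 libraries of a group biological replicates of mixed taproots.

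The genes named were the 10 with the widest gap, the 10 highest in phloem, those called, 3 on each side of the threshold and the 4 highest and 4 lowest in CT relative to phloem; the annotated genes were named after their values were seen. Product name lists (32) could be searched only against the 68 names the study gives, and 0 members matched. The members and lists were chosen with earlier results of these data known. Sequences are not shown.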

Additional observations from a re-analysis of the deposited data

Results flagged for a closer look

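The excess of phloem over xylem was called different between the pairs for 2 members by the interaction test, on values that the rule had also used. This share (1.40% of members) was near that of all genes called in this direction (1.27%). By voom on recovered fragments neither gene was called (adjusted p = 0.0639 for LOC108216523 and 0.0631 for LOC108202861). For LOC108216523 the log2 excess was larger in F over E than in H over G by 3.84, and for LOC108202861 by 2.14. In both genes the G libraries were above the E libraries, and the differences stayed between 3.41 and 4.28 and between 1.94 and 2.34 with each library left out in turn.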

How the results depend on the processing

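The number of members followed the rule's settings: 345 with a pseudocount of 0.1, 73 with a fold of at least 3, 301 with a fold of at least 1.5, 139 after quantile normalization and 155 with no gene left out. With each library left out in turn it ran between 153 and 251, the highest without G replicate 1. The counts of members with CT above every xylem library (81 to 119) and below every phloem library (107 to 122) stayed within 1.5 times their values of 97 and 107 under all alternatives run.

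For F against H, members called were 0 without the filter on low values, 8 in one fit of all 10 libraries, 0 by voom and 0 without each library. Over all genes the 263 calls became 7 without the filter, 1259 in the fit of all 10 libraries, 468 after quantile normalization, 0 by voom and 0 without each library. For the interaction, members called were 1 without the filter, 3 in the fit of all 10 libraries, 0 by voom and between 0 and 1 without each library, and the 291 calls over all genes became 602 in that fit, 124 after quantile normalization, 81 by voom and between 0 and 64 without each library.

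With the replicate number as a block, 10 members were called in F against H, 6 higher in F and 4 higher in H, of 991 genes in all, and 1 member of 36 genes in the interaction. The numbers share no origin in the labels. With the numbers of H crossed, an alternative chosen after seeing the data, 15 members of 1241 genes were called. No alternative run reversed the direction of a called gene.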
